A study of Drosophila melanogaster with 4 samples.

Results

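Monomethylated lysine 36 of histone H3 (H3K36me1) was examined in parts of the Drosophila melanogaster genome that lie in or next to heterochromatin. They were chromosome 4 and the separately assembled heterochromatic sequences 2LHet, 3LHet, 3RHet, XHet and YHet. Below, the term heterochromatic sequences stands for these 5 alone. The 2 Mb at the centromere end of the arms 2L, 3L, X and 3R were also taken. The centromere end of 2R and other sequences not named here were left out, and their regions count as the rest of the list. Regions of significant H3K36me1 enrichment were chosen by position alone. A region of the deposited whole-series list belonged to a class when its start lay on that sequence or within that end. This gave 434 of the 8190 regions of the list, with 63 on chromosome 4, 40 on the heterochromatic sequences, 84 at the end of 2L, 30 at the end of 3L, 54 at the end of X and 163 at the end of 3R.

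The mark was mapped by chromatin immunoprecipitation and sequencing (ChIP-seq) in nuclei of larvae of instar 3 of the wild-type strain Oregon-R-modENCODE, with no other genotype and no treatment. There were 2 ChIP samples and 2 input samples, numbered replicate 1 and replicate 2 in the labels, which do not say whether the replicates came from separate collections of larvae and give no sex. Chromatin came from homogenised larval tissue, so each value is a mixture over the cell types of the animal. The files give a list of regions for each ChIP sample (5645 regions in replicate 1 and 5725 in replicate 2) and 1 list for the series. They hold no read counts, and library depth is therefore unknown. Coordinates are those of FlyBase release 5.

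Methylation of H3K36 is in general a feature of transcribed chromatin. In flies the trimethyl state is made by Set2 during elongation, and Ash1 and Mes-4 act on lower states. Pericentromeric heterochromatin is rich in repeats, poor in genes and marked by methylation of H3K9 and by the protein HP1a. The genes that do lie in it can be long and active. Chromosome 4 is a small chromosome on which HP1a and active genes are interspersed, and which is also bound by the protein POF.

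H3K36me1 regions covered little of these sequences, with the centromere end of 3R as the exception. In the order of their coverage, the heterochromatic sequences were covered to 0.50% ± 0.21, the end of 3L to 4.72% ± 0.01 and the end of X to 6.70% ± 0.26 (SD, n = 2). Chromosome 4 was covered to 8.15% ± 0.53, the end of 2L to 13.1% ± 0.01 and the end of 3R to 29.1% ± 0.69. For each pair of neighbours in this order, the values of the replicates did not overlap. In the whole-series list, which is longer, the coverages were 1.29%, 6.32%, 9.76%, 13.2%, 17.7% and 36.6%, in the same order.

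Each class was then set against the rest of its own arm, or, for chromosome 4 and the heterochromatic sequences, against the 5 large arms (2L, 2R, 3L, 3R and X, with their ends). The difference of the end from the rest was -20.7 percentage points on 3L, with 4.73% in replicate 1 and 4.72% in replicate 2 at the end, against 25.9% and 25.0% on the rest. It was -16.6 points on X, with 6.88% and 6.51% at the end, against 24.2% and 22.3%. It was -8.85 points on 2L, with 13.1% in both replicates, against 22.4% and 21.5%. These 3 of the 4 ends were thus below the rest of their arms in both replicates. The end of 3R lay 6.43 points above the rest of 3R, with 29.6% and 28.6% at the end, against 23.1% and 22.2% on the rest. Against the large arms, which were covered to 23.1% and 22.1%, the difference was -14.5 points for chromosome 4 and -22.1 points for the heterochromatic sequences. The SD of these 6 differences over the replicates was between 0.06 and 1.26 points, so each difference was larger than the spread between replicates. With 2 replicates, a two-sided exact sign-flip permutation test cannot give a p under 0.5, and it gave 0.5 for each difference. The share of each sequence that can be mapped uniquely was not tested, and a low coverage is therefore not a measure of how much of the mark is present.

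**Figure D1:**
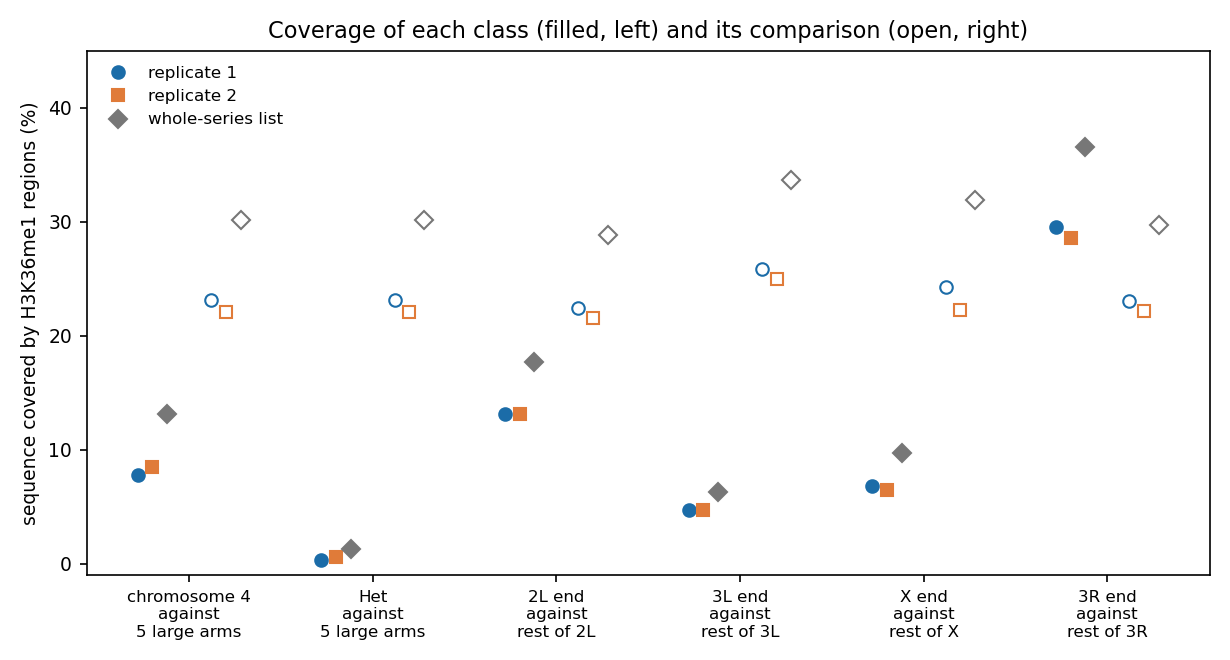
Percent of sequence covered by H3K36me1 regions for each class (filled symbols, left) and for the rest of its arm or the 5 large arms (open symbols, right), in replicate 1, replicate 2 and the whole-series list. Het stands for 2LHet, 3LHet, 3RHet, XHet and YHet together. The filled symbols lie below the open ones everywhere but at the end of 3R, where the replicates reached 29.6% and 28.6%.

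The ends were also ranked among the other 2 Mb windows of their own arms, as a description. The end of X was less covered than each of the 10 other windows of X in both replicates, whose lowest value was 17.3% in replicate 1 and 15.7% in replicate 2. The end of 3L was less covered than each of 11 other windows, the lowest of which had 8.91% and 9.32%. The end of 2L was the lowest of its arm in replicate 1, while in replicate 2 another window was lower at 12.4%. The end of 3R was more covered than 11 of 12 other windows in each replicate.

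On chromosome 4, H3K36me1 was concentrated in 2 stretches. The windows from 0 to 200 kb and from 400 to 600 kb were covered to 16.7% ± 0.24 and 25.0% ± 0.41 (SD, n = 2). Together they held 75.9% ± 4.62 of the covered length in the replicates, and 61.3% in the whole-series list. These windows were picked as the most covered after the values were seen, so their share is a description. Each of the other windows was covered to at most 4.22% in replicate 1, 5.70% in replicate 2 and 10.3% in the whole-series list. The last window, of 151.9 kb, had no region in either replicate. The longest stretch without a region of either replicate, at 1197477 to 1351857 (154.4 kb), ran to the end of the sequence, and the whole-series list placed 5 regions inside it.

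**Figure D2:**
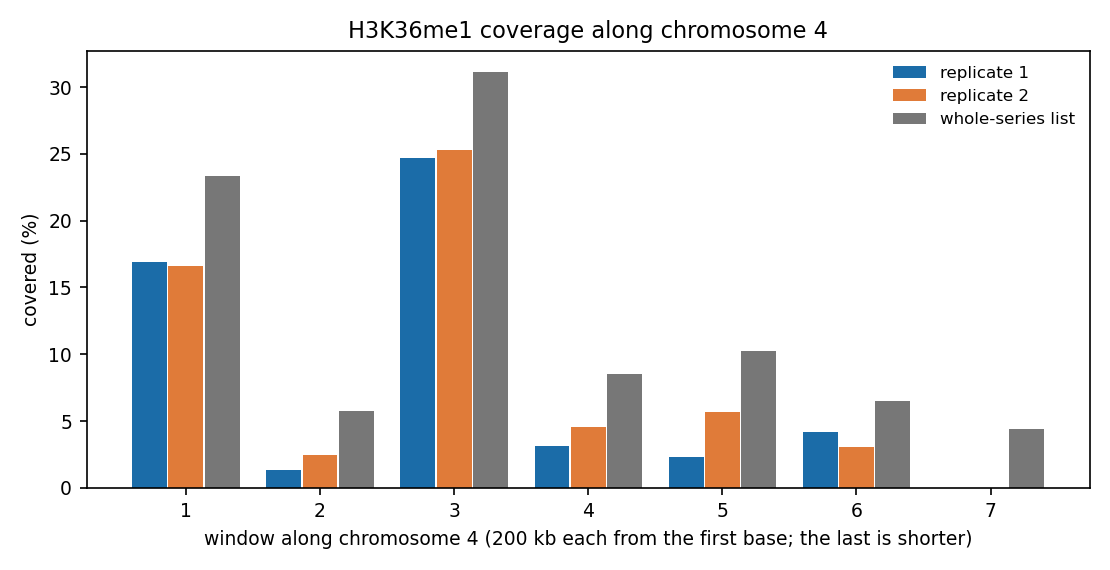
Percent of chromosome 4 covered by H3K36me1 regions in windows of 200 kb counted from the first base (the last window is shorter), in replicate 1, replicate 2 and the whole-series list. The windows numbered 1 (16.7%, replicate mean) and 3 (25.0%) stand above the others in both replicates.

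The widest regions of chromosome 4 that met both replicates, that is, shared at least 1 bp with a region of each, lay side by side in the second of these stretches. The region at 529187 to 552563 (23.4 kb) scored 0.88 in the whole-series list. The score is the authors' own value for a region, and its scale is not stated. It is used here to describe and rank regions within a list, and where scores of several lists stand side by side, a common scale is assumed. Replicate 1 covered 95.2% of the 23.4 kb region and replicate 2 92.6%, each with 2 regions. Its neighbour at 511162 to 528445 (17.3 kb, score 0.92) was a single region in each replicate, covered to 98.7% and 97.8%. A gap of 741 bp separated the pair in the whole-series list. These were the 2 of 63 regions of chromosome 4 that reached 10 kb, against 9.71% of all 8190 regions of the list. They held 22.9% of the summed width of its regions, where regions of 10 kb or more held 47.1% on the 5 large arms.

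The best-scoring regions of chromosome 4 that met both replicates were narrower. The first, at 572144 to 578489 (6.35 kb), scored 1.33 (whole-series list), 1.42 (replicate 1) and 1.28 (replicate 2), and the replicates covered 98.1% and 98.8% of it. It was followed by 90049 to 98189 (8.14 kb), with scores of 1.05, 1.15 and 0.94 in the same lists. After it came 1042226 to 1047463 (5.24 kb), with 0.98, 1.10 and 0.89. It lies far from both of the covered stretches, in a window covered to 3.65% on average. The region that was the third in width, at 71870 to 80056 (8.19 kb), scored 0.93, 1.09 and 0.93. All 4 of these were single regions in each replicate.

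The heterochromatic sequences held few and short regions, and most were not found in both replicates. Coverage was 0.34% in replicate 1 and 0.65% in replicate 2, a difference of over 1.5 times. Replicate 1 placed 8 regions and replicate 2 placed 18 regions on 5.99 Mb, against 40 regions in the whole-series list. No region reached 10 kb, where 9.71% of all 8190 regions of the whole-series list did. The median width in the whole-series list was 1591 bp. The difference between the replicates came mostly from 3LHet, with 2 regions in replicate 1 and 11 in replicate 2. On 3RHet they had 4 and 5 regions, on XHet 2 and 1, and on 2LHet 0 and 1. No list placed a region on YHet (0.35 Mb), where a count of 0 allows up to 8.64 regions per Mb provided that every base could carry a call. For 2LHet in replicate 1 the limit is 8.13 regions per Mb under the same condition. These limits cover counting error only.

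The regions of the heterochromatic sequences that met both replicates numbered 5. The widest was on XHet at 67522 to 74869 (7.35 kb), with scores of 0.61 (whole-series list), 0.69 (replicate 1) and 0.66 (replicate 2). Replicate 1 covered 83.2% of it and replicate 2 65.8%. It made XHet the most covered of these sequences in percent, at 3.88% in replicate 1 and 2.37% in replicate 2. XHet is also the shortest of them, at 0.20 Mb. Its covered length, 7.92 and 4.83 kb in the replicates, was below the 8.65 and 13.0 kb of 3RHet. Of the others, 3 lay on 3RHet. That at 2470593 to 2474237 (3.65 kb) had the best scores of the 5, with 0.78 (whole-series list), 0.80 (replicate 1) and 0.92 (replicate 2), and was covered to 84.0% and 85.4%. Its neighbour at 2474558 to 2476659 (2.10 kb) scored 0.45, 0.54 and 0.47. That at 1690405 to 1695599 (5.20 kb) was covered unequally, to 41.3% in replicate 1 and 84.2% in replicate 2, with replicate scores of 0.44 and 0.69. The region on 3LHet at 203548 to 206224 (2.68 kb) scored 0.48, 0.53 and 0.64 and was covered to 77.7% and 98.6%.

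Regions of the heterochromatic sequences were grouped at a few positions, and long stretches between them were empty. This was seen after the values were known and is given as a description. On 3RHet, 7 of 14 whole-series regions lay in the last 100 kb of a sequence of 2.52 Mb, with 3 of the 4 regions of replicate 1 and 3 of the 5 of replicate 2. On 3LHet, 9 of 19 lay in the last 150 kb, with 1 of 2 and 4 of 11 in the replicates. A further 4 lay between 200 and 220 kb, with 1 of 2 and 4 of 11. No region of either replicate lay in the first 1691 kb of 3RHet, nor on 3LHet between 219372 and 1349496 (1130 kb). The whole-series list placed no region inside the stretch of 3RHet and 2 inside that of 3LHet.

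At the end of 3L, H3K36me1 regions stopped well short of the end of the arm sequence. The 1 Mb nearest the end of the arm sequence held no region in either replicate, and the next 1 Mb was covered to 9.44% ± 0.02 (SD, n = 2). The region nearest the end was a small one at about 1213 kb from it in both replicates, with a width of 1.42 kb in replicate 1 and 1.72 kb in replicate 2. Beyond it, 23330720 to 24543557, the stretch with no region of either replicate measured 1213 kb, and the whole-series list placed 1 region of 1.29 kb inside it. Most of the covered length was in the step from 1500 to 1750 kb from the end, which was covered to 26.4% ± 1.40.

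A single broad domain accounted for much of the 3L end. It lay at 22811847 to 22856719 and was 44.9 kb wide, with a whole-series score of 1.51. It was 1 region in each replicate, of 44.8 and 44.7 kb, with scores of 1.50 and 1.52, and the replicates covered 99.8% ± 0.23 of it (SD, n = 2). This domain made up 47.4% of the summed width of the regions of the 3L end in each replicate. On the rest of 3L, all regions of 10 kb or more together held a similar share, 49.6% in replicate 1 and 47.2% in replicate 2. The next in width were at 22766664 to 22777651 (11.0 kb, score 0.66) and at 22874471 to 22882330 (7.86 kb, score 0.49). The 7.86 kb region was 1 region in replicate 1 and 2 in replicate 2, which covered 98.1% and 66.9% of it. The other best-scoring regions were at 22793360 to 22797747 (4.39 kb), with 0.99 (whole-series list), 0.98 (replicate 1) and 1.05 (replicate 2), and at 22804205 to 22806211 (2.01 kb), with 0.78, 0.71 and 0.85. All 5 lie within a stretch of 115.7 kb.

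At the end of 2L the coverage dropped over the last 1 Mb as well, from a higher level. From 1 to 2 Mb from the end it was 22.4% ± 0.05 (SD, n = 2), close to the 22.0% of the rest of the arm, and over the last 1 Mb it was 3.85% ± 0.06. The step from 500 to 750 kb held no region of either replicate. It lies in the longest empty stretch, at 22163137 to 22646232 (483.1 kb), inside which the whole-series list placed 2 regions. Beyond it a few small regions reached to 104 kb from the end in replicate 1 and 94.2 kb in replicate 2.

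Broad regions were about as frequent at the end of 2L as in the list as a whole. In the whole-series list 8 of 84 reached 10 kb, which is 9.52%, against 9.71% of all 8190 regions. In each replicate 9 regions reached 10 kb, and they held 59.3% of the summed width in replicate 1 and 50.8% in replicate 2, against 49.7% and 46.4% on the rest of 2L. The widest lay at 21860793 to 21902836 (42.0 kb, score 0.75) and was broken up in the replicates, with 2 regions in replicate 1 and 4 in replicate 2 and coverages of 88.9% and 98.6%. The next, at 21816020 to 21846985 (31.0 kb, score 1.03), consisted of 2 regions in each replicate. The third, at 21237775 to 21257840 (20.1 kb), was also the best in score, with 1.55 (whole-series list), 1.61 (replicate 1) and 1.52 (replicate 2). It was a single region in each, covered to 98.4% ± 0.64 (SD, n = 2). Next in score came 21743451 to 21757641 (14.2 kb), with 1.48, 1.55 and 1.44, and 21030666 to 21042206 (11.5 kb), with 1.27, 1.20 and 1.37.

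The end of X was thinly covered throughout its 2 Mb, without the drop seen on 2L and 3L. The last 1 Mb was covered to 7.71% ± 0.19 and the next 1 Mb to 5.68% ± 0.33 (SD, n = 2). No step of 250 kb reached the 23.3% of the rest of X. The steps from 1250 to 1500 kb and from 500 to 750 kb were the most covered, with 12.6% ± 0.71 and 12.5% ± 1.43, and did not differ beyond the spread between replicates. The longest empty stretch, at 20535186 to 20912596 (377.4 kb), lay on the side away from the centromere. A region of 2.51 kb at 9.10 kb from the end was found in replicate 1, and the region nearest the end in replicate 2 was 166.5 kb from it.

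Regions at the end of X were of moderate width, with scores like those of the rest of the chromosome. The median score was 0.61 in replicate 1 and 0.67 in replicate 2, against 0.66 and 0.67 on the rest of X. The widest region, at 22228732 to 22256467 (27.7 kb, score 0.88 in the whole-series list), lay 166.4 kb from the end. Replicate 1 broke it into 3 regions of up to 12.9 kb and replicate 2 into 4 of up to 8.46 kb, and they covered 95.7% ± 0.98 of it (SD, n = 2). The next were 21141904 to 21151987 (10.1 kb, score 0.73) and 20933210 to 20942944 (9.74 kb, score 0.90). The best in score was 21877321 to 21883550 (6.23 kb), with 1.22 (whole-series list), 1.39 (replicate 1) and 1.17 (replicate 2). It was followed by 20925596 to 20933111 (7.52 kb), with 1.05, 1.13 and 1.06, and by 20528492 to 20535514 (7.02 kb), which scored 0.91 in the whole-series list and was 2 regions in each replicate.

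The centromere end of 3R was dense in H3K36me1. It held 111 regions in replicate 1 and 116 in replicate 2, or 55.5 and 58.0 per Mb, against 46.2 and 46.3 per Mb on the rest of 3R. Coverage was highest between 750 and 1250 kb from the end, with 57.8% ± 0.44 in the first step of 250 kb there and 53.2% ± 2.62 in the second (SD, n = 2). It was lower towards the end of the sequence, at 19.9% ± 0.11 over the 250 kb nearest it. On the other side it fell off to 5.22% ± 0.65 from 1750 to 2000 kb. Within the 2 Mb, the longest stretch without a region of either replicate was 143.8 kb, at 1686894 to 1830702. Stretches were cut at the boundary of the end. In the whole-series list, no region lay between 1942767 and 2171618, a longer stretch that crosses this boundary. Regions reached the very end of the sequence, where one at 507 to 9960 (9.45 kb) was among the best in score of the class, with 1.42 (whole-series list), 1.41 (replicate 1) and 1.48 (replicate 2).

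**Figure D3:**
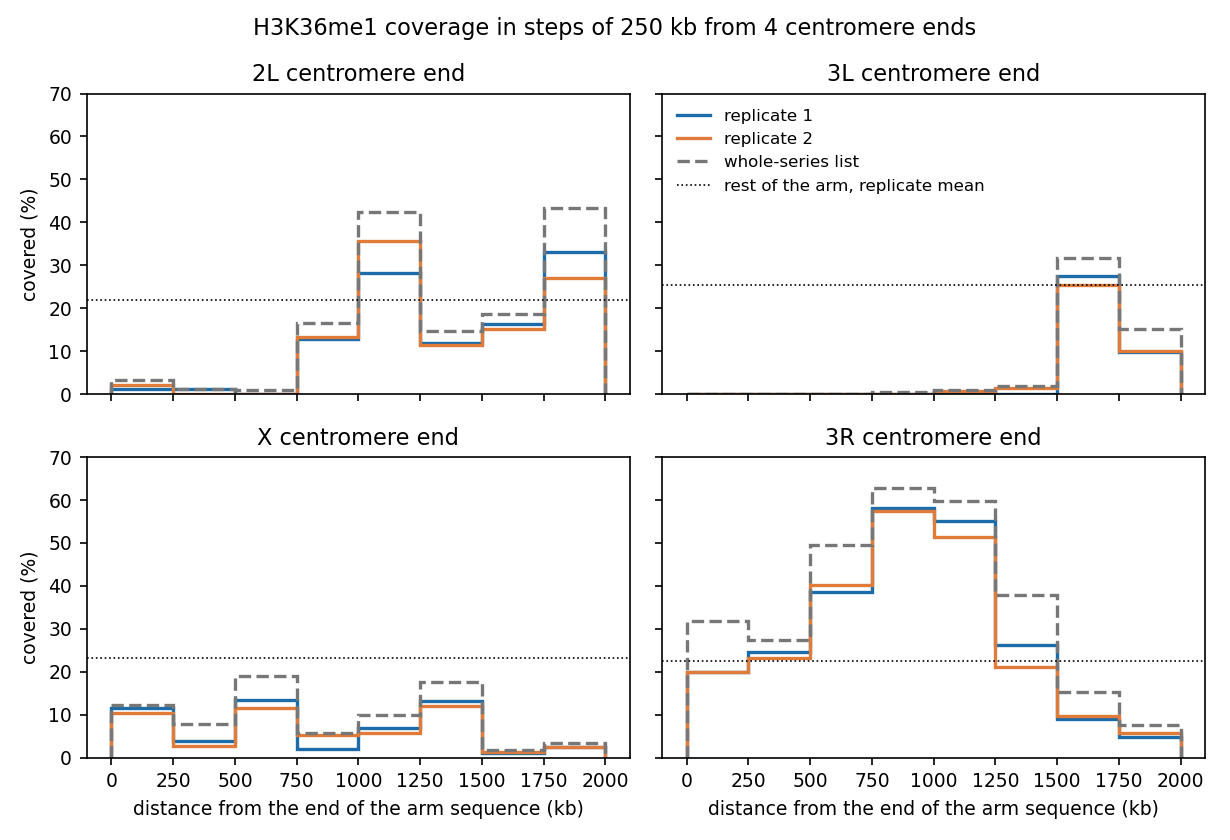
Percent of sequence covered by H3K36me1 regions in steps of 250 kb, against the distance from the centromere end of the arm sequence, for replicate 1, replicate 2 and the whole-series list. The dotted line is the mean of the replicates over the rest of the arm. On 3L the first 1000 kb are empty in both replicates, while on 3R the replicates peak at 57.8% on average between 750 and 1000 kb.

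The widest region at the end of 3R lay within the peak, at 898150 to 952638 (54.5 kb), and scored 1.22 in the whole-series list. Replicate 1 had 2 regions in it, of up to 39.4 kb, and replicate 2 had 3, of up to 30.7 kb. Their best scores were 1.90 and 1.86, which belong to parts of the domain and cannot be set beside the 1.22 of the whole. It was preceded by 877929 to 894766 (16.8 kb), the best in score in the whole-series list, with 1.44 there, 1.45 in replicate 1 and 1.42 in replicate 2. Another region at 834585 to 872522 (37.9 kb, score 0.96) stood just before these. The 3 regions together filled 109.3 of 118.1 kb. The other 2 lay nearer the end, at 485356 to 530718 (45.4 kb), with a whole-series score of 1.18 and 2 regions in each replicate, and at 618854 to 637955 (19.1 kb), a single region in each, with 1.43, 1.55 and 1.34 in the 3 lists. Each of these 5 regions was covered to over 96% by both replicates.

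Fewer of the regions of chromosome 4 and of the heterochromatic sequences were found in both replicates than of the whole list. Of all 434 regions, 178 met both replicates, which is 41.0% (Wilson 95% interval 36.5% to 45.7%), against 46.8% of all 8190 regions. The share was 33.3% on chromosome 4 (21 of 63, 22.9% to 45.6%) and 12.5% on the heterochromatic sequences (5 of 40, 5.46% to 26.1%). It was 38.1% at the end of 2L, 40.0% at the end of 3L, 46.3% at the end of X and 50.9% at the end of 3R (83 of 163, 43.3% to 58.5%). The intervals of chromosome 4 and of the heterochromatic sequences lie below 46.8%, and those of the 4 ends include it. Another 145 of the 434 met neither replicate (33.4%), against 31.5% of all 8190. These intervals reflect counting error alone, and regions next to each other are not independent.

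**Figure D4:**
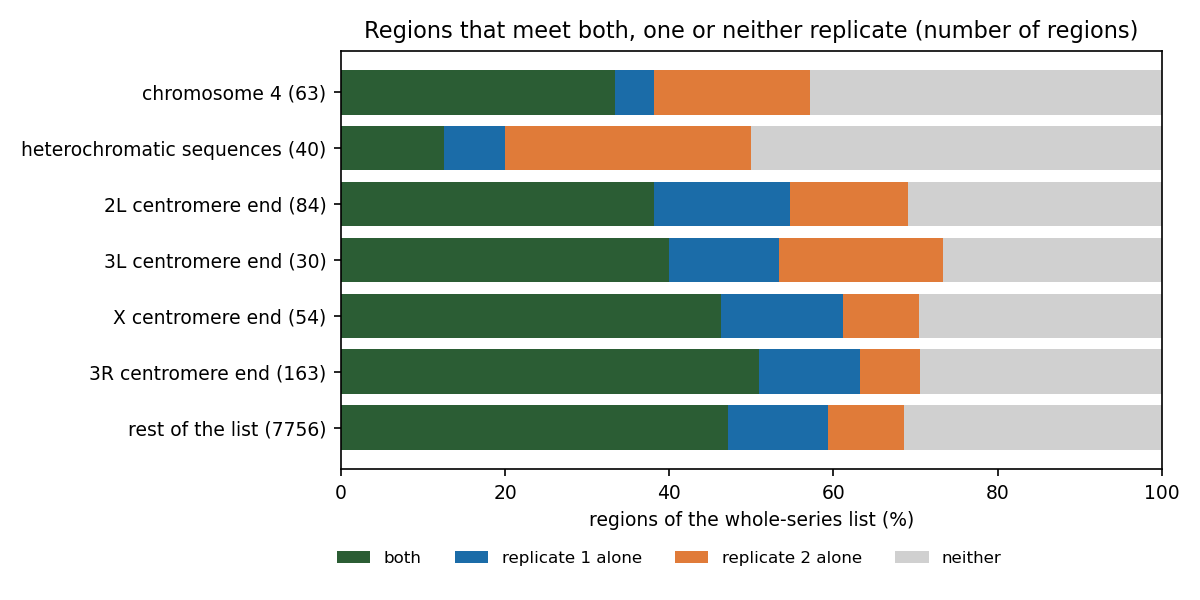
Percent of whole-series regions that met both replicates, replicate 1 alone, replicate 2 alone or neither, for each class and for the rest of the list, with the number of regions in brackets. The share that met both was 12.5% on the heterochromatic sequences and 50.9% at the end of 3R, against 47.2% of the rest of the list.

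Regions that met a single replicate were counted by replicate, with no test between the classes. On the heterochromatic sequences 3 regions met replicate 1 alone and 12 met replicate 2 alone, and on chromosome 4 the numbers were 3 and 12 as well. At the ends they were 14 and 12 on 2L, 4 and 6 on 3L, 8 and 5 on X and 20 and 12 on 3R. Over the rest of the list, 945 regions met replicate 1 alone and 717 met replicate 2 alone. From the side of the replicates, 23 of 26 regions of replicate 1 on chromosome 4 met replicate 2, and 22 of 35 of replicate 2 met replicate 1 (88.5% and 62.9%), against 80.1% and 84.2% over the whole lists. On the heterochromatic sequences 5 of 8 and 5 of 18 did so.

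Whether a region was found in both replicates varied with its width. All 70 regions of these classes wider than 5 kb met both replicates. Of 131 regions over 2 and up to 5 kb, 86 did (65.6%), and of 233 regions up to 2 kb, 22 did (9.44%). In the rest of the list the share was 98.1% over 5 and up to 10 kb, 99.9% over 10 kb, 70.6% over 2 and up to 5 kb and 11.3% up to 2 kb. The heterochromatic sequences held mostly short regions, with 30 of 40 up to 2 kb, none of which met both replicates. If each width class had the share of the rest of the list, 11.0 of their 40 regions would have met both replicates, where 5 did. On chromosome 4 the same calculation gives 23.6 regions, where 21 did, and at the end of 3R 74.4 regions, where 83 did. These numbers are a description, and whether width accounts for the shares was not tested. The narrowest region of the replicate lists was 1301 bp and that of the whole-series list 1001 bp. Members under 1301 bp numbered 93, of which 86 met neither replicate, against 1220 of 1332 in the rest of the list. Regions this narrow made up 32.5% of those of the heterochromatic sequences, against 17.2% of the rest of the list.

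The replicates gave paired regions a similar order of scores. Over 160 pairs of regions of these classes that met one to one, Spearman's rho of the scores was 0.86, against 0.87 over 3250 pairs of the rest. Their widths differed by 216 bp in the median, against 270 bp. These are descriptions across regions, and all points come from the same pair of libraries.

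Wider regions of these classes mostly had higher scores, as in the rest of the list. The median score of the 434 regions was 0.37 in the whole-series list, against 0.39 for the rest of the list, and their median width was 1912 bp, against 2028 bp. The median was 0.32 for those up to 2 kb and 0.94 for those over 10 kb, against 0.32 and 0.99 in the rest of the list. On chromosome 4 and at the end of X the 2 regions over 10 kb had medians of 0.90 and 0.80, below the 0.95 and 0.90 of the regions over 5 and up to 10 kb. The best score of all of them belonged to a region of 1001 bp on chromosome 4 at 615336 to 616336. It scored 2.05, at rank 4 among the 8190 regions of the list, and met neither replicate. A second region of 1001 bp on chromosome 4, at 1317763 to 1318763, scored 1.75 and was in neither replicate. The other 21 regions of these classes that scored above 1 met both replicates and were 3681 bp or wider. In the rest of the list, 6 of 547 regions above 1 met neither replicate, with widths of 1001 to 1389 bp.

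**Figure D5:**
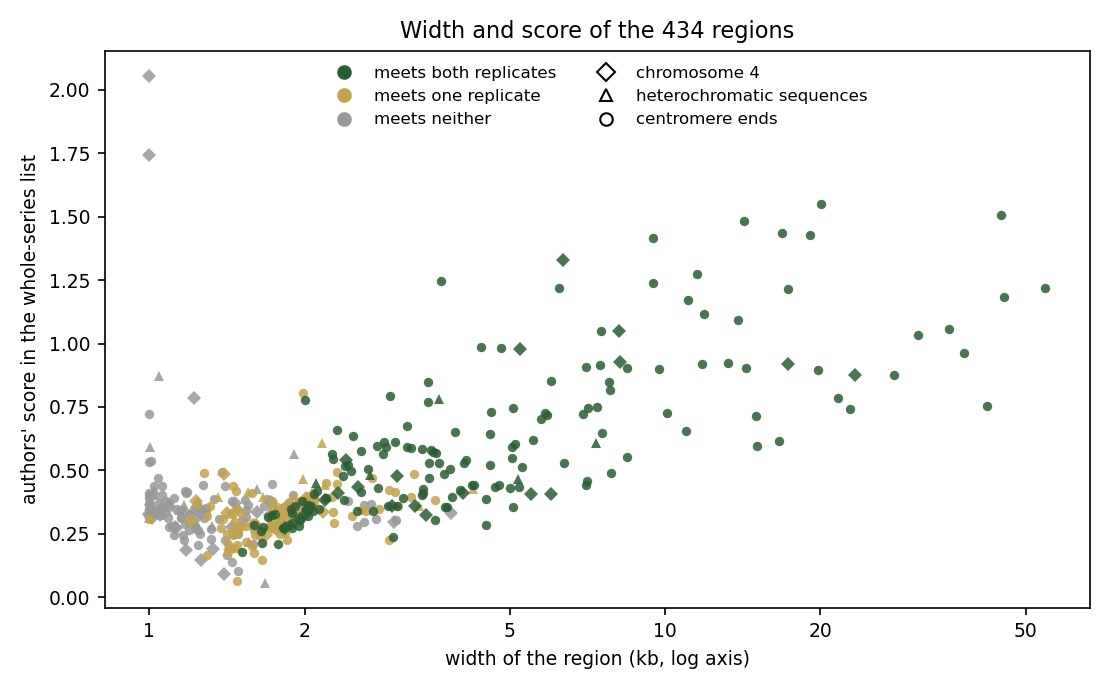
Width (log axis) and authors' score in the whole-series list of the 434 regions, coloured by whether they met both, one or neither replicate, with symbols for chromosome 4, the heterochromatic sequences and the 4 ends. Most of the high scores lie to the right, at large widths, and 2 regions of chromosome 4 at 1001 bp with scores of 2.05 and 1.75 stand apart at the upper left.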

How the data were processed

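The series holds 2 H3K36me1 ChIP samples and 2 inputs, and no values of the inputs were analysed here. The values used were the score per region, as the authors deposited it, and the region boundaries. Reads were aligned with Bowtie 0.12.7, per the submitters' processing notes, and coordinates are of FlyBase release 5, per the file headers. Which program called the regions, at which threshold, and how the whole-series list was made from the replicates is not given in the sources used here. Members and lists were chosen with earlier results of these data known.

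Regions were assigned by their start, and coverage counts the bases of a window inside any region. A region starting at 21009742, just outside the end of 2L, reaches into it and counts for coverage only. Regions met when they shared at least 1 bp. Named regions are the 3 widest and the 3 best-scoring of each class that met both replicates, and every such region of the heterochromatic sequences. The 2 regions of 1001 bp on chromosome 4 were chosen after their values were seen. The whole-series list also holds 1 region of depletion, which was left out. Genes were not named and no sequence was read, since the gene table at hand is of release 6. Depth is unknown, so no precision can be derived from it. Interval functions were tested on simulated lists. Python 3.11.15, numpy 2.4.6, pandas 2.3.3, scipy 1.17.1 and matplotlib 3.10.9 were used.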

Additional observations from a re-analysis of the deposited data

Results flagged for a closer look

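Coverage at the proximal end of 3R went against that of the other ends in both replicates. Its coverage was above that of the rest of 3R by 6.48 percentage points in replicate 1 and 6.39 in replicate 2, a mean of 6.43, whereas the ends of 2L, 3L and X lay below the rest of their arms in both, by means of -8.85, -20.7 and -16.6. Each replicate of 3R went one way and each replicate of the other ends the opposite way, and the difference between the ends was not tested. How far each arm sequence reaches towards its centromere was not tested.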

How the results depend on the processing

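Of 59 alternative values for 14 results, 28 stayed within the replicate SD or the 95% interval and 31 did not. For 12 of the 28, coverages with a replicate left out, this holds by construction. The replicate SD was as small as 0.01 points, at the ends of 2L and 3L, and some alternatives move a value by construction. The count of 31 is therefore not a measure of how stable the results are. With the best-scoring 50% of regions, coverage was 5.03% on chromosome 4 and 10.1%, 3.59%, 5.58% and 22.8% at the ends of 2L, 3L, X and 3R. Coverage is lower there by construction, since regions are only removed. The share that met both replicates was 72.2% on chromosome 4 and 77.4%, 76.9%, 61.0% and 82.4% at those ends. On the heterochromatic sequences this share was 23.8%, and coverage was 0.29%. The cause of these shares was not tested. Taken from the whole-series list, coverage was 13.2% on chromosome 4, 1.29% on the heterochromatic sequences and 17.7%, 6.32%, 9.76% and 36.6% at the ends. The cause was not tested. With ends of 1 Mb, coverage was 3.85% on 2L, 0% on 3L, 7.71% on X and 35.3% on 3R, and 0% of the 3L regions met both replicates, where the whole-series list has 1 region. These windows are the inner part of the 2 Mb ends. Each class stayed on the same side of the rest of its arm, or of the large arms, in both replicates with the best-scoring 50% and with ends of 1 Mb.

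With a replicate left out, coverage was 7.78% to 8.52% on chromosome 4, 0.34% to 0.65% on the heterochromatic sequences and 13.1% to 13.1%, 4.72% to 4.73%, 6.51% to 6.88% and 28.6% to 29.6% at the ends of 2L, 3L, X and 3R. The heterochromatic value differs by over 1.5 times between the replicates. The share that met the remaining replicate was 38.1% to 52.4%, 20.0% to 42.5%, 52.4% to 54.8%, 53.3% to 60.0%, 55.6% to 61.1% and 58.3% to 63.2% in the same order, and is higher by construction. The median width of 1912 bp became 2578 bp with regions under 1 kb apart joined and 3479 bp with the best-scoring 50%, and the median score of 0.37 became 0.49 in members of at least 2 kb, by construction. Each class was set against the rest within each replicate. For the ChIP and input samples that share replicate numbers, no paired analysis was possible because the inputs were not analysed here. Depth, which is unknown, limits all values.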
